A study of Mus musculus with 45 samples.

Results

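The genes described here are 50 cell cycle genes of the mouse, chosen by symbol from the 54532 genes of the count table. They were chosen with earlier results of these data known. The 50 genes were divided by role into 14 genes of DNA replication (S phase), 17 genes of mitosis and 19 genes of the G1 control that governs entry into replication. Each of the 50 symbols matched 1 row of the table, and all 50 passed the filter on low counts in each of the 12 comparisons.

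RNA was sequenced from neural tube organoids, grown clonally in Matrigel from R1 cells, a wild-type line of mouse embryonic stem (ES) cells, in N2B27, a serum-free medium in which ES cells turn into neural tissue. At day 2 the organoids received N2B27 without or with 250 nM all-trans retinoic acid (RA), and they were collected at day 2 (before treatment), at 8 h and 18 h after it, and then every 12 h from 30 h to 78 h, with 3 libraries for each of the 15 groups. The dose and the times are those of the sample titles and the study's methods. The treatment protocol of the labels gives the dose in µM and slightly different late times. The labels give all groups the same line and genotype, and each library was made from RNA of many cells in bulk, so a change in the number of cells of a type and a change of RNA per cell cannot be told apart. The study's methods call the 45 samples independent and the 3 of each group biological replicates. They do not say whether these came from separate cultures or days, and the p-values measure the spread between these libraries.

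A cell copies its DNA in S phase and divides in mitosis. Before S phase, in G1, D-type cyclins (Ccnd1, Ccnd2 and Ccnd3) activate the kinases Cdk4 and Cdk6, which phosphorylate the retinoblastoma protein family (Rb1, Rbl1 and Rbl2) and release the E2F transcription factors that drive the replication genes. Inhibitors of the Ink4 type (Cdkn2a, Cdkn2c) block Cdk4 and Cdk6, and those of the Cip/Kip type (Cdkn1a, Cdkn1b) act mainly on Cdk2. In the early neural tube nearly all cells divide, and leaving the cycle goes with becoming a neuron.

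The total count per library was 17298632 to 39688686, with a median of 25923745. Levels are given as CPM, the count of a gene relative to the summed count of its library, scaled between libraries by TMM factors. Mean CPM over the 4 Y chromosome genes of the line were 1.22 to 3.65 in 6 libraries and 22.9 to 89.5 in the other 39. The 6 libraries were RA-treated 8 h replicate 3, all 3 untreated 30 h libraries and RA-treated 30 h replicates 1 and 3. RA-treated 8 h replicate 3 and RA-treated 30 h replicate 2 therefore stood apart from the other libraries of their groups, and the results at 8 h and 30 h are given with and without them. Whether the 6 libraries came from cells that differ from those of the other 39, against the labels, or were exchanged was not tested, and this doubt holds for every value of 8 h and 30 h. The other 39 also differed by time, with 67.9 to 73.6 CPM at day 2, and at 78 h 29.2 to 32.1 CPM untreated and 28.0 to 36.1 CPM with RA. Of the 4 Y chromosome genes, 3 were called lower past 2-fold at 78 h than at day 2 in each arm. At 18 h 3 of the 4 were also called lower than at day 2 in each arm, with none past 2-fold. The median log2 fold change of the 4 was then -0.33 untreated and -0.35 with RA. What lies behind these differences was not tested, and the doubt holds for the comparisons of both 18 h and 78 h with day 2. For 35 of the 50 genes, RA-treated 30 h replicate 2 lay nearer on the log2 scale to the mean of the RA-treated 42 h libraries than to the mean of the other RA-treated 30 h libraries. For 24 of the 50 it lay nearer to the mean of RA-treated 8 h replicates 1 and 2 than to its own group. RA-treated 8 h replicate 3 lay nearer to the mean of RA-treated 30 h replicates 1 and 3 than to its own group for 19 of the 50. No such count was made for other libraries. At 30 h the untreated libraries were all of the low kind, so what sets those libraries apart and time cannot be told apart in untreated organoids of 30 h.

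A gene was called when its adjusted p was below 0.01 (edgeR quasi-likelihood test across all genes, Benjamini-Hochberg), and past 2-fold when its log2 fold change was also above 1 or below -1. At 18 h, 26 of the 50 genes fell and 8 rose, whereas 20.3% of all 16508 genes tested fell and 22.3% rose. At 42, 54 and 66 h 9, 9 and 8 of the 50 genes rose and 4, 2 and 5 fell, whereas 20.5%, 20.8% and 17.8% of all genes rose and 17%, 17.9% and 15.6% fell, so rises outnumbered falls among all genes too. With DESeq2 6 rose and 7 fell at 42 h. By 78 h 12 rose and 2 fell, against 19.2% and 14.2% of all genes (12 and 6 without untreated 78 h replicate 1). The median log2 fold change of the 50 genes was -0.22 at 18 h and 0.04 at 78 h, and that of all genes tested was 0.02 at 18 h and 0.00 at 78 h. Over the 7 times, 12 of the 50 genes were called only upward, 21 only downward, 8 in both directions at different times and 9 at no time. No such count over the 7 times was made for all genes, so these numbers have no share to be set against. Most of the changes in the 50 genes were small, and 5 genes were called past 2-fold at any time. Among these, Cdk6 was past 2-fold only at 30 h, and not without RA-treated 30 h replicate 2.

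The count of falls at 18 h depended on the scaling. With library totals in place of TMM factors, the median of all genes moved from 0.02 to 0.14, and 14 of the 50 genes fell and 11 rose, so 44.0% of calls were upward against 23.5% with TMM factors. With DESeq2 26 fell and 8 rose at 18 h. Without untreated 18 h replicate 3, 17 fell and 9 rose.

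**Figure D1:**
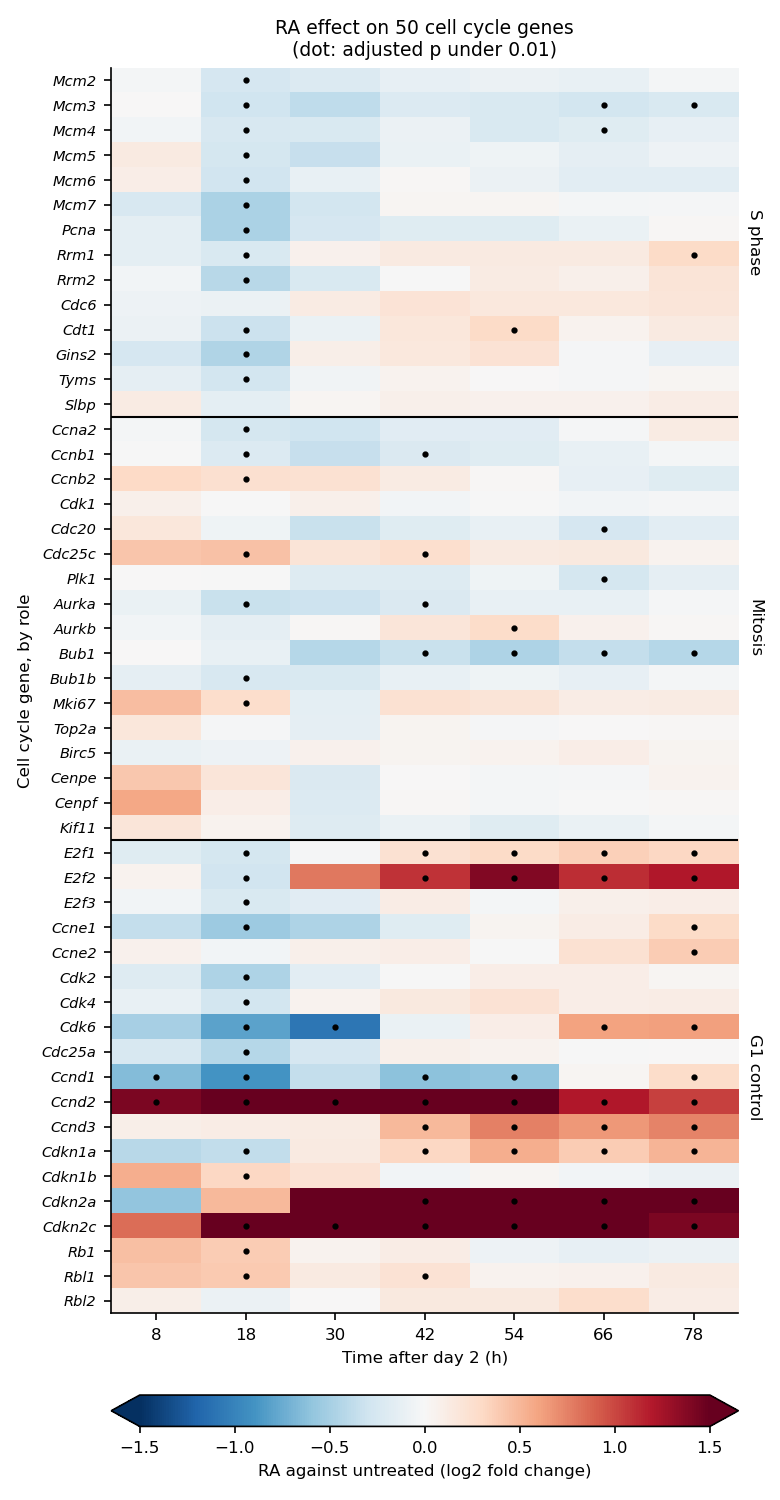
Log2 fold change of RA-treated against untreated organoids for the 50 cell cycle genes (rows, by role) at 7 times (columns, h after day 2), with colour from blue (lower with RA) to red (higher), saturated at 1.5 in either direction, and a dot where the adjusted p was below 0.01. The column of 18 h is blue for 14 of 14 S phase genes, and the cells called above 1 are in the rows of Ccnd2, Cdkn2c, Cdkn2a and E2f2, of which Cdkn2a is blue at 8 h and E2f2 at 18 h.

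Among the S phase genes, 12 of 14 fell at 18 h with RA, none rose (0 also at an unadjusted p under 0.05, and 0 with DESeq2), and all 14 had a log2 fold change below 0, from -0.48 to -0.09. Of all genes 20.3% fell and 22.3% rose. The median of the S phase genes was -0.28. The genes that fell were the 6 subunits of the replicative helicase (Mcm2 to Mcm7), the sliding clamp Pcna, the helicase subunit Gins2, the licensing factor Cdt1, both ribonucleotide reductase subunits (Rrm1 and Rrm2) and thymidylate synthase (Tyms). Cdc6, which loads the helicase, and Slbp, which binds histone messages, were not called. The number that fell was 7 without untreated replicate 3, 8 without untreated replicate 1 or RA-treated replicate 3, and 6 with library totals, where 13 of 14 were below 0.

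At 18 h Pcna was measured at 268, 279 and 271 CPM in the 3 untreated libraries and at 199, 192 and 193 CPM in the 3 RA-treated ones. The groups did not overlap, and Pcna fell by 0.48 (SE 0.048, adjusted p = 3.9e-06). Mcm7 was at 514, 431 and 518 CPM untreated and at 318, 369 and 361 CPM with RA. It fell by 0.47 (SE 0.070, adjusted p = 0.00010), again without overlap. Mcm7 shares exon sequence with Cops6 and Ap4m1 on the opposite strand, which reached 192 and 68.3 CPM, and whether counting used strand is not given in the sources used here. Gins2 was lower in level, at 50.4, 57.5 and 60.1 CPM untreated and 41.8, 37.9 and 42.1 CPM with RA. It fell by 0.46 (SE 0.072, adjusted p = 0.00016). Gins2 overlaps Gse1 on the opposite strand, which ranged from 57.7 to 213 CPM.

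The fall was not seen at the end of the series. At 78 h Pcna was at 211, 223 and 224 CPM untreated and at 220, 214 and 223 CPM with RA, and the groups overlapped (log2 fold change 0.02, SE 0.046, adjusted p = 0.80). Of all genes at least 14.2% fell and 17.8% rose at each time from 42 h to 78 h. Over the S phase genes, none was called at 42 h (4 upward and 2 downward at an unadjusted p under 0.05, and 1 downward with DESeq2), 1 rose at 54 h, 2 fell at 66 h, and 1 rose and 1 fell at 78 h. The one that rose at 78 h was Rrm1, the large subunit of ribonucleotide reductase, with 313, 366 and 375 CPM untreated and 414, 416 and 439 CPM with RA, a rise of 0.28 (SE 0.062, adjusted p = 0.0031). The one that fell was Mcm3, with 533, 625 and 629 CPM untreated and 507, 495 and 509 CPM with RA, a fall by 0.23 (SE 0.059, adjusted p = 0.0085). Mcm3 was also called lower at 18 h and 66 h.

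**Figure D2:**
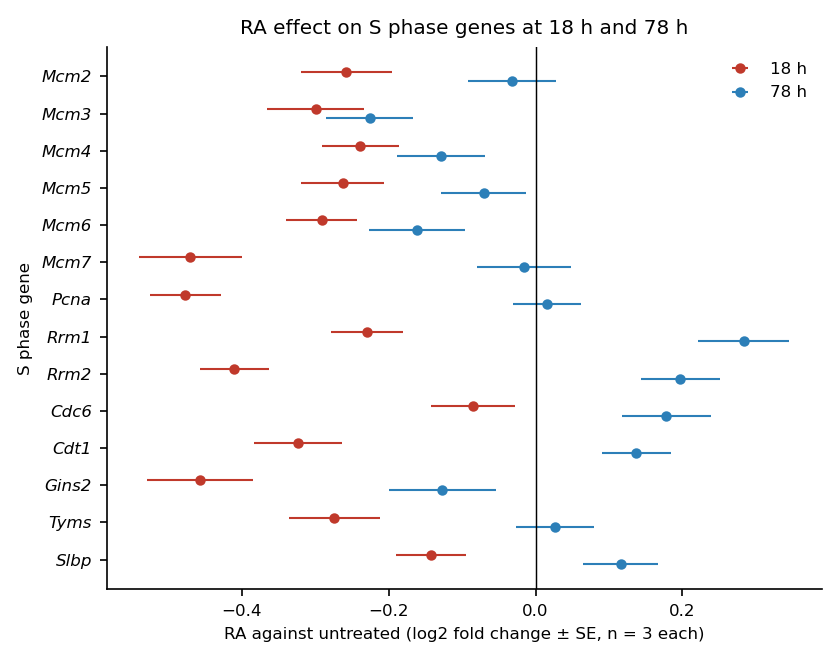
Log2 fold change of RA-treated against untreated organoids (x axis, with its standard error, 3 libraries per group) for the 14 S phase genes (y axis) at 18 h (red) and 78 h (blue). All 14 points of 18 h lie left of 0, from -0.48 to -0.09, and the points of 78 h lie on both sides, 7 above and 7 below.

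The difference between the RA effects at 18 h and at 78 h was tested in 1 model of the 12 libraries of both times. Over all 18017 genes tested the effect was higher at 78 h in 13.1% and lower in 14.8%. Of the 50 cell cycle genes it was higher at 78 h in 19 and lower in 5. All 14 S phase genes had a difference above 0 (13 with library totals; median 0.26, all genes -0.05), and 5 of them were called, Mcm7, Pcna, Rrm1, Rrm2 and Cdt1. The largest were those of Rrm2, the small subunit of ribonucleotide reductase, at 0.58 (SE 0.070, adjusted p = 5.8e-06) and Rrm1 at 0.49 (SE 0.081, adjusted p = 0.00015). Since the comparisons at 18 h and 78 h enter this difference, it is not a further line of evidence for either.

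Of 34 other replication genes tested, listed by symbol apart from the 50, 18 fell and 1 rose at 18 h (20.3% and 22.3% of all genes). At 18 h 29 of them were below 0 and 5 above, and the median was -0.20. This list and the other lists below were counted with TMM factors only, and not with library totals. The largest falls were those of Chaf1b (-0.79, SE 0.053, adjusted p = 8.2e-08), a histone chaperone subunit, and Mcm10 (-0.55, SE 0.065, adjusted p = 1.6e-05), a replication initiation factor. The single rise was that of Rpa1 (0.48, SE 0.050, adjusted p = 4.8e-06), which binds single-stranded DNA. At 78 h 6 fell (14.2% of all genes), with Pold1, the catalytic subunit of DNA polymerase delta, lowest at -0.34 (SE 0.049, adjusted p = 0.00017), and Cdc7, a kinase that fires replication origins, next at -0.28 (SE 0.059, adjusted p = 0.0028).

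The mitosis genes did not move together at 18 h. Of 17, 4 fell and 3 rose, against 20.3% and 22.3% of all genes, and the median was -0.02. Aurka, a kinase of the spindle poles, was at 168, 151 and 162 CPM untreated and at 118, 128 and 131 CPM with RA, and fell by 0.34 (SE 0.053, adjusted p = 0.00016). Ccna2, the cyclin of S phase and early mitosis, was at 298, 293 and 309 CPM untreated and at 250, 251 and 243 CPM with RA, and fell by 0.27 (SE 0.045, adjusted p = 0.00028). Ccna2 overlaps Exosc9 on the opposite strand, which ranged from 37.8 to 90.8 CPM. Ccnb1 and Bub1b were the other falls. In the other direction Cdc25c, a phosphatase that activates Cdk1, was at 27.8, 27.2 and 28.8 CPM untreated and at 38.2, 37.7 and 37.2 CPM with RA, and rose by 0.44 (SE 0.056, adjusted p = 2.8e-05). The other rises were those of Ccnb2 and the proliferation marker Mki67. The untreated and RA-treated libraries of Aurka, Ccna2 and Cdc25c did not overlap. With library totals 4 mitosis genes rose and 1 fell, and the median was 0.10.

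Fewer mitosis genes were called later. At 42 h 3 fell and 1 rose, at 54 h 1 fell and 1 rose, at 66 h 3 fell, and at 78 h 1 fell. Of all genes 17%, 17.9%, 15.6% and 14.2% fell at these times, and 20.5%, 20.8%, 17.8% and 19.2% rose. None rose at 66 h or 78 h (1 at an unadjusted p under 0.05 at each time, 0 with DESeq2). Bub1, a kinase of the spindle checkpoint, was called lower at 42, 54, 66 and 78 h. By 78 h it stood at 219, 232 and 216 CPM untreated and at 187, 161 and 144 CPM with RA, a fall by 0.43 (SE 0.081, adjusted p = 0.0012). At 18 h its groups overlapped, at -0.11 (SE 0.060, adjusted p = 0.13), and the difference between the effects of the 2 times missed the threshold (-0.34, SE 0.11, adjusted p = 0.020). Cdk1, Top2a, Birc5, Cenpe, Cenpf and Kif11 were called at none of the 7 times, with log2 fold changes of -0.07 to 0.18 at 18 h. The effect was higher at 78 h than at 18 h for Ccna2 (0.36, SE 0.066, adjusted p = 0.00037) and Aurka (0.30, SE 0.074, adjusted p = 0.0040). It was lower for Ccnb2 (-0.45, SE 0.078, adjusted p = 0.00026) and Cdc25c (-0.41, SE 0.075, adjusted p = 0.00031).

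Of 35 other mitosis genes tested, 7 fell and 4 rose at 18 h (20.3% and 22.3% of all genes), with a median of -0.0043. The lowest was Gtse1 (-0.55, SE 0.059, adjusted p = 6.2e-06), which acts in G2, and then Espl1 (-0.44, SE 0.086, adjusted p = 0.00085), the protease that parts sister chromatids. The highest was Cdc25b (0.71, SE 0.058, adjusted p = 6.2e-07), a phosphatase related to Cdc25c, and then Ndc80 (0.25, SE 0.054, adjusted p = 0.0018), a kinetochore protein. At 78 h 4 rose (19.2% of all genes), and Cdc25b was again highest at 1.21 (SE 0.10, adjusted p = 2.9e-06), followed by Cdca3 at 0.38 (SE 0.047, adjusted p = 6.6e-05).

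Promoter sequences are shown for letters whose share differed between the roles. They were taken from RefSeq (build GRCm38.p6, 250 bases before and 50 after each start), which held 41 of the 50 genes. These 41 genes had 48 promoters, 13 of S phase, 14 of mitosis and 21 of G1 control genes. Letters of the E2F type (TTTCGCGC or TTTGGCGC, either strand) were in 5 of 13 promoters of S phase genes, 1 of 14 of mitosis genes and 3 of 21 of G1 control genes, against 0.813% of all 32851 promoters. Letters of the CHR type (TTTGAA, either strand), known from promoters of G2 and mitosis genes, were in 10 of 14 promoters of mitosis genes (71.4%), 1 of 13 of S phase genes and 3 of 21 of G1 control genes, against 17.9% of all promoters. The letters CCAAT, on either strand, were in 13 of 14, 10 of 13 and 9 of 21, against 37.4% of all. A TTTGGCGC and a TTTCGCGC on opposite strands can overlap, as in Mcm5 and Mcm6, while the other motifs were searched on their own. A match is a run of letters and not a tested site. The windows below lie before the start, are written 5′ to 3′ on the strand of the gene, and carry the E2F type letters in capitals for the helicase subunits Mcm5 (chr8:75109331-75109388, + strand) and Mcm6 (chr1:128359720-128359777, - strand) and for Cdc25a (chr9:109875487-109875544, + strand), and the CHR type letters for Cdk1 (chr10:69352953-69353008, - strand) and Ccnb2 (chr9:70421691-70421746, - strand).
Mcm5: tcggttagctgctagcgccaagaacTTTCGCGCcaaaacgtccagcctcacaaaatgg
Mcm6: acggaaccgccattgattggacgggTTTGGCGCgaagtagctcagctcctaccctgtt
Cdc25a: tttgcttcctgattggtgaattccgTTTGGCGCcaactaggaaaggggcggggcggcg
Cdk1: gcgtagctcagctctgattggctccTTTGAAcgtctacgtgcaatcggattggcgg
Ccnb2: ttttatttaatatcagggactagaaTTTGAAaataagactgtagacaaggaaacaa
These 5 genes were chosen after their values were seen. The letters did not divide the genes by direction at 18 h, and motif against fold change was not tested. Of the genes with E2F type letters, Cdt1, Mcm3, Mcm5, Mcm6, Mcm7, E2f2 and Cdc25a, the phosphatase that activates Cdk2, fell, Cdk1 was not called (-0.01) although its promoter holds both types, and Rbl1 rose (0.39). Of those with CHR type letters, Aurka (-0.34), Bub1b (-0.24), Mcm2 (-0.26), E2f2 (-0.29) and E2f3 (-0.23) fell, Ccnb2 (0.24) and Mki67 (0.26) rose, and Cdc20, Cdk1, Cenpf, Kif11, Plk1, Top2a and Rbl2 were not called.

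The G1 control genes held the largest RA effects, and the D-type cyclins the clearest. In this family Ccnd2 rose at all 7 times, past 2-fold each time, while Ccnd1 fell at 4 times and Ccnd3 rose from 42 h on. Ccnd2 (ENSMUSG00000000184, chr6:127125162-127152193, - strand) was at 38.8, 35.5 and 33.9 CPM at day 2. At 18 h it was at 49.2, 41.5 and 47.2 CPM untreated and at 166, 186 and 177 CPM with RA. The groups were far apart, and the rise was 1.95 (SE 0.063, adjusted p = 7.8e-11). At 8 h it had already risen by 1.41 (SE 0.11), and the rise was 1.32 (SE 0.084, adjusted p = 3.9e-09) without RA-treated replicate 3.

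The largest Ccnd2 difference was at 42 h, with 129, 165 and 146 CPM untreated and 837, 836 and 777 CPM with RA, a log2 fold change of 2.47 (SE 0.08). Untreated organoids also rose in Ccnd2, to 439, 449 and 508 CPM at 78 h, when RA-treated ones were at 845, 937 and 1038 CPM. The groups still did not overlap, and the log2 fold change was 1.03 (SE 0.079, adjusted p = 1.4e-06). The effect was 0.94 lower at 78 h than at 18 h (SE 0.11, adjusted p = 4.5e-06), with both arms higher at 78 h. Against day 2, Ccnd2 was higher by 0.35 (SE 0.071) at 18 h and 3.69 (SE 0.072) at 78 h in untreated organoids, and by 2.28 (SE 0.065) and 4.70 (SE 0.089) in RA-treated ones. The 2 transcripts that overlap its exons on the opposite strand did not exceed 0.360 CPM in any library.

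Ccnd1 (ENSMUSG00000070348, chr7:144929931-144939925, - strand) was at 444, 447 and 421 CPM at day 2. At 18 h it was at 365, 339 and 367 CPM untreated and at 184, 193 and 194 CPM with RA, a fall by 0.90 (SE 0.048, adjusted p = 9.1e-09) without overlap. At 78 h the order was reversed, with 280, 318 and 307 CPM untreated and 366, 362 and 355 CPM with RA, a rise of 0.27 (SE 0.052, adjusted p = 0.0012). The difference between these effects was 1.15 (SE 0.069, adjusted p = 2.0e-09). Between them, Ccnd1 was called lower at 42 h (-0.61) and 54 h (-0.59) and its groups overlapped at 66 h (0.03). At 8 h the fall was by 0.65, and it was by 0.73 (SE 0.063, adjusted p = 1.8e-07) without RA-treated replicate 3.

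Ccnd3 (ENSMUSG00000034165, chr17:47505051-47599691, + strand) did not separate the groups at 18 h, with 79.9, 76.0 and 84.0 CPM untreated and 80.2, 86.7 and 89.9 CPM with RA (0.11, SE 0.055, adjusted p = 0.11). The 78 h levels were 104, 110 and 105 CPM untreated and 183, 172 and 175 CPM with RA, a rise of 0.75 (SE 0.049, adjusted p = 3.8e-07). The effect was 0.62 higher at 78 h than at 18 h (SE 0.073, adjusted p = 4.8e-06). Ccnd3 overlaps Bysl on the opposite strand, which ranged from 44.9 to 130 CPM.

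**Figure D3:**
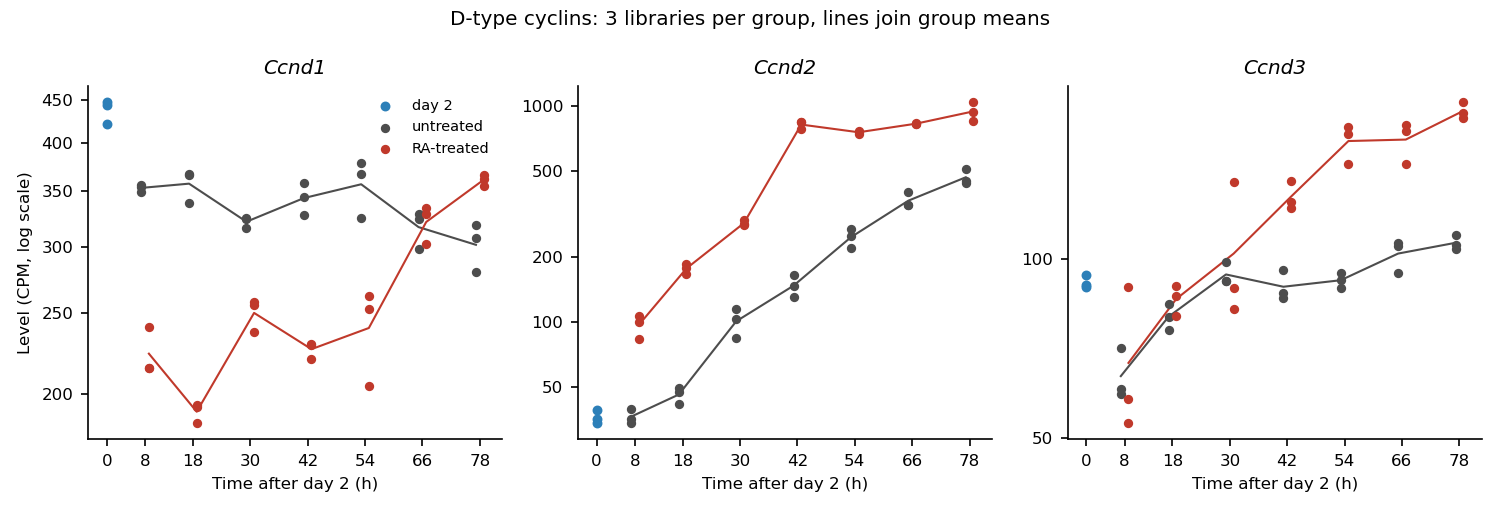
Levels of Ccnd1, Ccnd2 and Ccnd3 (y axis, CPM after TMM scaling, log scale) in every library against time after day 2 (x axis, h), with day 2 in blue, untreated libraries in dark grey, RA-treated ones in red and lines joining the means of 3 libraries. Ccnd2 is higher with RA at every time, Ccnd1 is lower with RA until 54 h and higher at 78 h, and Ccnd3 separates from 42 h on.

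Levels of different genes can be set side by side only per length. Each D-type cyclin was therefore divided by the length of all its annotated exons merged and given as a share of the 3 together. These lengths were 4709 bases for Ccnd1, 9409 for Ccnd2 and 8775 for Ccnd3. At day 2 Ccnd1 made up 86.7% ± 0.48 (SD, n = 3) of the summed CPM per kb of the D-type cyclins and Ccnd2 3.58% ± 0.19. In untreated organoids the Ccnd2 share was 5.43% ± 0.25 at 18 h, 15.8% ± 1.1 at 42 h and 39.4% ± 1.9 at 78 h. With RA it was 27.2% ± 0.69 at 18 h, 58.1% ± 0.46 at 42 h and 50.7% ± 3.0 at 78 h. RA-treated organoids of 42 h thus had more Ccnd2 than Ccnd1 per length (86.8 and 48.0 CPM per kb), and untreated organoids of 78 h had more Ccnd1 (64.1 and 49.5 CPM per kb). The share of Ccnd3 kept between 8.41% and 14.2% in the group means. The shares are descriptions, with no test. The transcripts in use can be shorter than the merged exons, by a different amount for each gene, so the shares are not shares of transcript number. The overlap of Ccnd3 with Bysl also bears on its share.

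**Figure D4:**
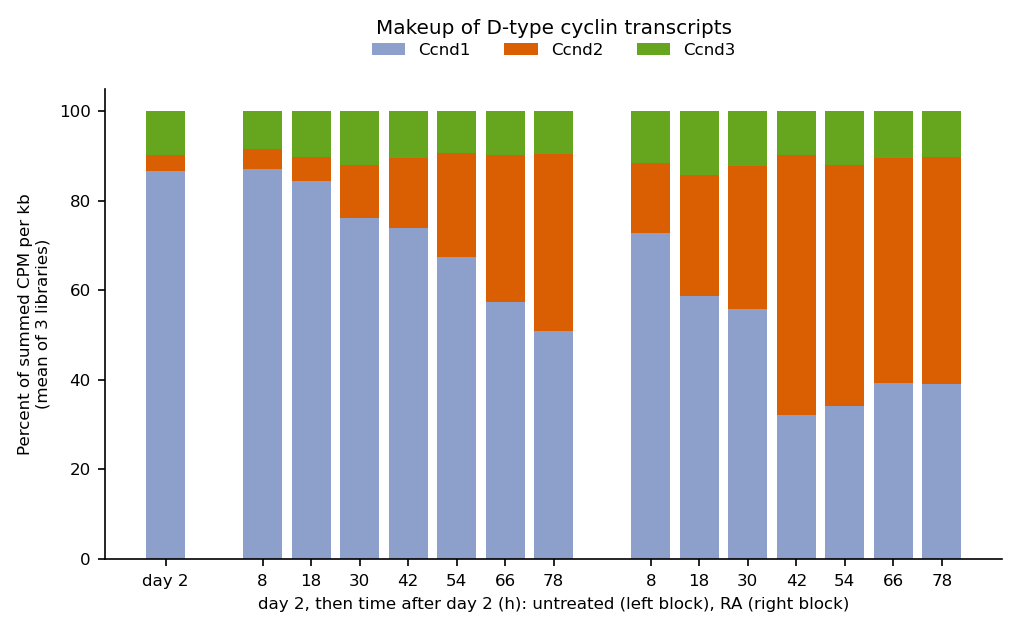
Mean share of Ccnd1, Ccnd2 and Ccnd3 (y axis, percent of their summed CPM per kb, mean of 3 libraries) at day 2 and at each time after it (x axis, h) in untreated (left block) and RA-treated organoids (right block). Ccnd2 grows from 3.58% at day 2 to 39.4% in untreated and 50.7% in RA-treated organoids at 78 h.

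The CDK inhibitors changed at different times. Cdkn1b (p27) was called higher at 18 h, at 57.6, 55.1 and 58.9 CPM untreated and 71.2, 68.9 and 71.6 CPM with RA at 18 h, by 0.31 (SE 0.049, adjusted p = 0.00016). At 78 h its groups overlapped, with 81.4, 84.2 and 92.7 CPM untreated and 82.9, 79.4 and 78.2 CPM with RA (-0.09, SE 0.055, adjusted p = 0.22). The effect was 0.42 lower at 78 h (SE 0.072, adjusted p = 0.00019). With all 6 libraries it was not called at 8 h (0.55, SE 0.13, adjusted p = 0.037) or 30 h (0.22, SE 0.14, adjusted p = 0.29). It was called at 8 h without RA-treated replicate 3 (0.38, SE 0.067, adjusted p = 0.00038) and at 30 h without RA-treated replicate 2 (0.36, SE 0.066, adjusted p = 0.00015).

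Cdkn1a (p21), a target of p53, went the other way. At 18 h it was at 53.5, 51.1 and 59.1 CPM untreated and at 41.3, 42.1 and 42.2 CPM with RA, a fall by 0.37 (SE 0.058, adjusted p = 0.00015). By 78 h it stood at 77.5, 82.4 and 77.3 CPM untreated and at 110, 111 and 113 CPM with RA, a rise of 0.51 (SE 0.050, adjusted p = 9.3e-06). The effect differed by 0.86 between the times (SE 0.076, adjusted p = 1.9e-07).

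Cdkn2a (ENSMUSG00000044303, chr4:89274471-89294653, - strand), whose locus makes both p16Ink4a and p19Arf, cannot be split between those transcripts in gene counts. At 18 h it was at 3.84, 3.22 and 4.75 CPM untreated and at 4.99, 5.69 and 6.002 CPM with RA, and the difference missed the threshold (0.49, SE 0.15, adjusted p = 0.015). At 78 h it was at 2.77, 2.17 and 1.73 CPM untreated and at 12.4, 11.6 and 13.97 CPM with RA, a rise of 2.54 (SE 0.17, adjusted p = 4.4e-07). It was called past 2-fold at 42, 54, 66 and 78 h. The effect was 2.02 higher at 78 h than at 18 h (SE 0.24, adjusted p = 4.5e-06). Its level fell against day 2 in untreated organoids, by 1.06 (SE 0.16, adjusted p = 0.00013) at 18 h and by 1.92 (SE 0.18, adjusted p = 7.5e-08) at 78 h. The untreated 30 h libraries were lowest, at 0.714, 0.305 and 0.613 CPM, and the RA-treated ones were at 2.55, 16.6 and 3.16 CPM, the middle one being the library that stood apart.

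Cdkn2c (ENSMUSG00000028551, chr4:109660876-109667189, - strand), which codes for p18Ink4c, was low throughout, at 8 to 82 counts in untreated libraries and 19 to 186 counts in RA-treated ones. At 18 h it was at 0.496, 0.660 and 0.640 CPM untreated and at 1.56, 2.23 and 1.57 CPM with RA, a rise of 1.57 (SE 0.27, adjusted p = 0.00035). Its 78 h levels were 1.94, 1.81 and 2.29 CPM untreated and 5.39, 4.98 and 5.53 CPM with RA, a rise of 1.41 (SE 0.15, adjusted p = 2.0e-05). The groups overlapped at 8 h and at no later time. The difference between the effects at 78 h and 18 h was -0.18 (SE 0.28, adjusted p = 0.64).

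E2f2, an activating E2F factor, was lower with RA at 18 h and higher from 42 h. At 18 h it was at 17.01, 16.3 and 17.6 CPM untreated and at 13.9, 13.98 and 13.6 CPM with RA, a fall by 0.29 (SE 0.071, adjusted p = 0.0039). At 78 h it was at 16.5, 17.4 and 19.2 CPM untreated and at 36.3, 39.2 and 45.6 CPM with RA, a rise of 1.20 (SE 0.090, adjusted p = 1.1e-06). The groups did not overlap at either time, and the effects differed by 1.47 (SE 0.12, adjusted p = 7.9e-08). E2f1 took the same signs with smaller values, -0.26 at 18 h and 0.31 at 78 h.

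Cdk6, named here after its values were seen, was the only gene of the 50 called lower past 2-fold with RA at any time. At 30 h it was at 118, 122 and 114 CPM untreated and at 61.8, 45.9 and 59.5 CPM with RA, a fall by 1.08 (SE 0.12, adjusted p = 0.00078), and without RA-treated replicate 2 the fall was by 0.98 (SE 0.068, adjusted p = 7.0e-10). Without that library, which stood apart, Cdk6 was called lower but not past 2-fold. At 78 h it was higher with RA, at 56.5, 63.2 and 51.8 CPM untreated and 82.2, 90.5 and 87.9 CPM with RA (0.62, SE 0.075, adjusted p = 5.0e-05). The effect was 1.40 higher at 78 h than at 18 h (SE 0.10, adjusted p = 1.8e-08). Among the retinoblastoma family, Rb1 and Rbl1 rose at 18 h (0.38 and 0.39), the effect on Rb1 was 0.49 lower at 78 h (SE 0.078, adjusted p = 0.00011), and Rbl2 was not called at any time. Rb1 overlaps Lpar6 and Rcbtb2 on the opposite strand, which reached 66.0 and 196 CPM.

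**Figure D5:**
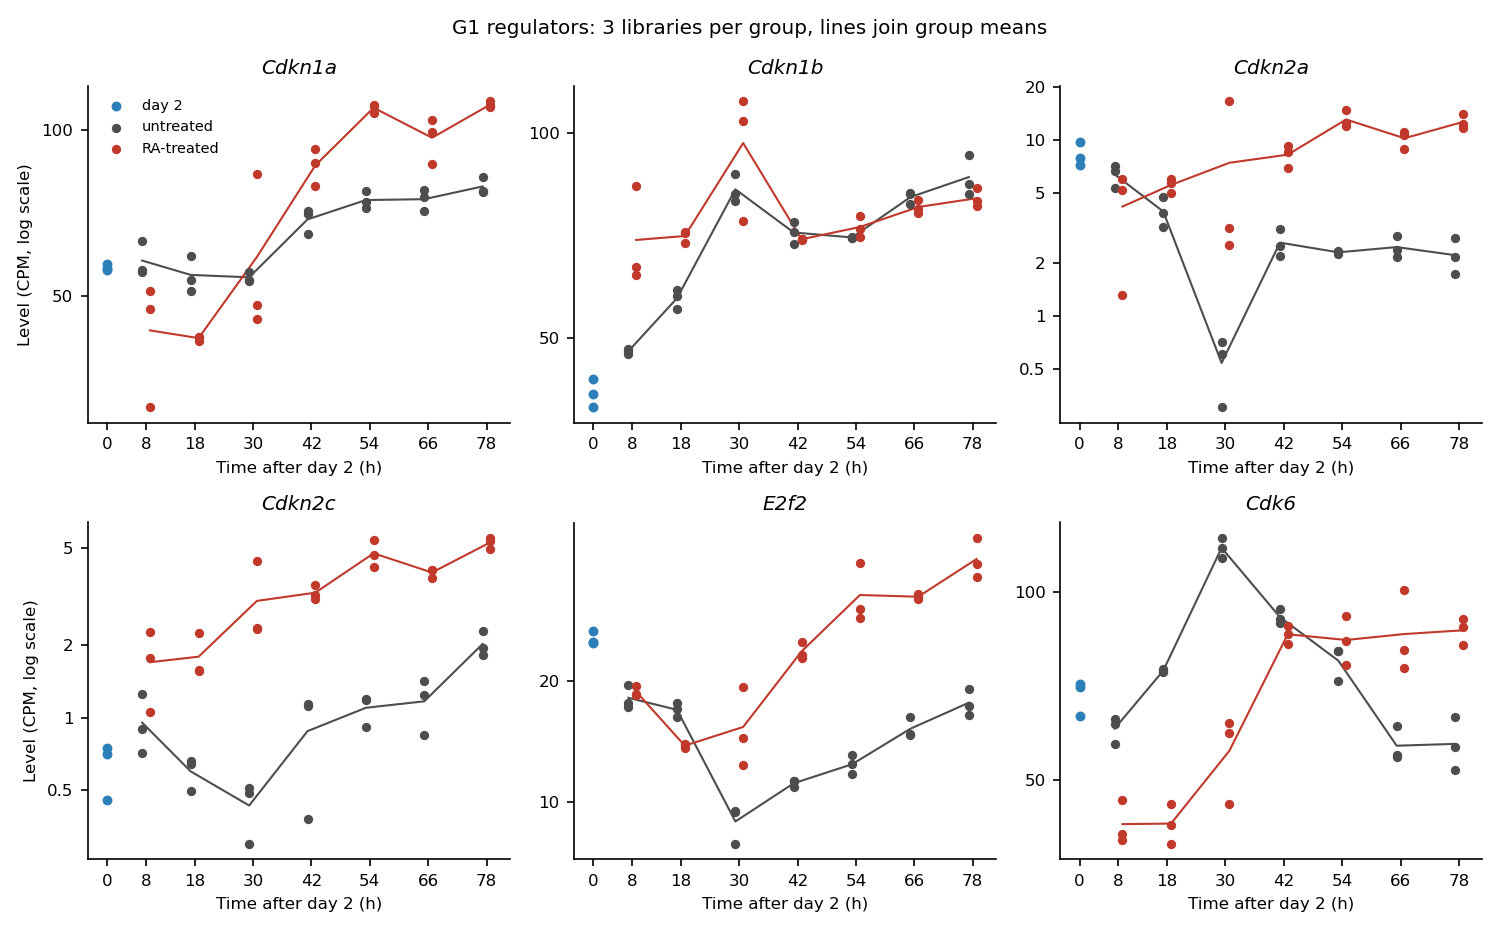
Levels of 6 G1 regulators (y axis, CPM after TMM scaling, log scale) in every library against time after day 2 (x axis, h), with day 2 in blue, untreated libraries in dark grey, RA-treated ones in red and lines joining the means of 3 libraries. Cdkn2a, Cdkn2c and E2f2 stay apart from 42 h on, Cdkn1a and Cdk6 cross between the arms, and RA-treated 30 h replicate 2 lies far from the other RA-treated libraries for Cdkn2a, at 16.6 against 2.55 and 3.16 CPM.

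Among all genes, 22.3% rose and 20.3% fell at 18 h, and 19.2% rose and 14.2% fell at 78 h. By count, 5 of the 19 G1 control genes rose and 10 fell at 18 h, and 11 rose and none fell at 78 h (0 lower at an unadjusted p under 0.05, and 0 with DESeq2). With library totals the counts at 18 h were 7 and 7. Past 2-fold, 2 of the 50 genes were called at 18 h (10.9% of all genes), Ccnd2 and Cdkn2c, and 4 at 78 h (11.7%), Ccnd2, Cdkn2c, Cdkn2a and E2f2. The same 4 genes were called past 2-fold at 42 h (12.5% of all genes), 54 h (13.2%) and 66 h (11.5%). The share of the 50 genes past 2-fold was thus below that of all genes at each of these times.

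At 42 h 9 genes rose (20.5% of all genes did) and 4 fell (17%), of which 8 rises and 1 fall were in G1 control. Library totals gave 14 and 2, RLE size factors 8 and 7, and DESeq2 6 and 7, so the split between rises and falls at 42 h depended on the scaling. At 54 h 9 rose (20.8%) and 2 fell (17.9%), and DESeq2 gave 10 and 4. At 66 h 8 rose (17.8%) and 5 fell (15.6%), and library totals gave 9 and 2. As shares of the 50 genes, both directions were below those of all genes at these times. Of the 19 G1 control genes, 8 rose at 42 h, 7 at 54 h and 8 at 66 h. At 42 h the counts were 6 and 8 without untreated replicate 1, and 5 and 1 without RA-treated replicate 2.

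At 8 h 1 gene rose (1.84% of all genes did) and 1 fell (1.30%), Ccnd2 and Ccnd1, and 1.80% of all genes were past 2-fold, Ccnd2 among them. Without RA-treated replicate 3, 5 rose and 7 fell, adding Cdkn1b, Rb1, Cdc25c and Cenpe upward and Ccne1, Cdc25a, Cdk2, Cdk6, Cdt1 and Gins2 downward. The share of all genes called was not counted for that fit, so its counts have no share to be set against. Without untreated replicate 1 or 3 no gene was called (edgeR), and without untreated replicate 2 or RA-treated replicate 1 or 2 a single gene was, upward. At an unadjusted p under 0.05 the S phase genes gave 1 fall and the mitosis genes 4 rises, none called, and with DESeq2 2 mitosis genes rose.

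At 30 h 2 genes rose (8.21% of all genes did), 1 fell (5.92%) and 3 were past 2-fold (8.45%), Ccnd2, Cdkn2c and Cdk6. No S phase or mitosis gene was called (4 S phase falls, 6 mitosis falls and 1 mitosis rise at an unadjusted p under 0.05; 2 S phase falls with DESeq2). The share of all genes called was not counted without RA-treated replicate 2, so the counts of that fit have no share to be set against. Without that library, 8 rose and 16 fell, among them 6 of 14 S phase genes and 5 of 17 mitosis genes downward. The fall of Cdk6 was then not past 2-fold (-0.98). Pcna then fell by 0.38 (SE 0.062, adjusted p = 3.7e-05) and Mcm7 by 0.43 (SE 0.068, adjusted p = 3.5e-05). Cdkn2a rose by 2.2975 (SE 0.32, adjusted p = 6.3e-06) and E2f2 by 0.56 (SE 0.13, adjusted p = 0.00098). Cdkn1a fell by 0.23 (SE 0.070, adjusted p = 0.0083), whereas with all 6 libraries it had been at 0.13 (SE 0.24). The summed level of the 17 mitosis genes was 5260 to 5503 CPM in the untreated 30 h libraries and 3651 to 5440 CPM in the RA-treated ones.

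Change with time was compared with day 2 in each arm, and these 4 comparisons share the 3 day 2 libraries. In untreated organoids of 18 h 3 of the 50 genes were higher than at day 2 (14.6% of all genes were) and 16 lower (14.1%). All 14 S phase genes were below 0, with a median of -0.19, and 7 were called, led by Cdt1 (-0.38, SE 0.059, adjusted p = 0.00016) and Pcna (-0.30, SE 0.053, adjusted p = 0.00051). With library totals 4 genes were higher and 10 lower, and without day 2 replicate 1 the counts were 2 and 8, while 3 S phase genes were called without day 2 replicate 1 or untreated 18 h replicate 3. Mki67 rose by 0.33 (SE 0.068), Bub1b fell by 0.27 (SE 0.061) and Cdc20, which activates the anaphase-promoting complex, fell by 0.23 (SE 0.053). Cdkn1b rose by 0.47 (SE 0.057) and E2f2 fell by 0.58 (SE 0.070).

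In RA-treated organoids of 18 h 10 genes were higher than at day 2 (30.0% of all genes) and 33 lower (28.8%), and all 14 S phase genes were called lower, with a median of -0.50. Pcna was lower by 0.80 (SE 0.054, adjusted p = 1.5e-09) and Cdt1 by 0.73 (SE 0.068, adjusted p = 7.5e-08). With library totals 12 of the 14 were called lower, and the median of all genes moved from 0.02 to 0.22. Over the 50 genes library totals gave 13 higher and 24 lower. Among mitosis genes Cdc25c (0.61) and Mki67 (0.57) were higher and Bub1b (-0.53) and Aurka (-0.45) lower. In G1 control, Cdkn2c was higher by 1.48 (SE 0.31) and Ccnd1 and E2f2 were lower, by 1.21 (SE 0.052) and 0.90 (SE 0.077).

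At 78 h untreated organoids had 13 genes higher than at day 2 (36.2% of all genes) and 27 lower (33.3%), and RA-treated ones 15 higher (36.8%) and 24 lower (33.1%). With library totals these counts were 16 and 22, and 19 and 19. Of the 14 S phase genes 10 were lower in each arm. The lowest were Cdt1 (-0.81, SE 0.059) and Pcna (-0.62, SE 0.055) in untreated organoids and Cdt1 (-0.69, SE 0.062) and Mcm2 (-0.62, SE 0.051) with RA. Gins2 was the 1 S phase gene that rose in untreated organoids (0.24, SE 0.064).

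Among mitosis genes the same direction was found in both arms at 78 h for those named. Mki67 was higher by 0.63 (SE 0.073) untreated and 0.73 (SE 0.069) with RA, and Cdc25c by 0.58 (SE 0.077) and 0.62 (SE 0.081). Cdc20 was lower by 0.68 (SE 0.061) and 0.86 (SE 0.054), and Bub1b, a checkpoint kinase, by 0.68 (SE 0.068) and 0.73 (SE 0.053). In G1 control, Ccne1, the cyclin that activates Cdk2, fell from 293 CPM at day 2 to 120 CPM untreated and 146 CPM with RA, by 1.28 (SE 0.051) and 1.01 (SE 0.049). Cdkn2c was higher by 1.67 (SE 0.28) and 3.06 (SE 0.22), and Rbl2 lower by 0.90 (SE 0.091) with RA. Rbl2 overlaps Aktip on the opposite strand, which ranged from 36.3 to 57.0 CPM.

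Of 25 other G1 control genes, 12 fell and 3 rose at 18 h (20.3% and 22.3% of all genes), with a median of -0.25. The largest rise was that of Cdkn1c (1.29, SE 0.060, adjusted p = 2.5e-09), the Cip/Kip inhibitor p57, and then that of Cdkn2d (0.57, SE 0.11, adjusted p = 0.00065), an Ink4 inhibitor. The largest falls were those of Tfdp2 (-0.72, SE 0.049, adjusted p = 9.6e-08), a partner of the E2F factors, and Mybl2 (-0.55, SE 0.072, adjusted p = 3.6e-05). At 78 h 6 rose and 3 fell (19.2% and 14.2% of all genes), led by Cdkn1c (2.63, SE 0.062, adjusted p = 2.5e-10) and Cdkn2b (1.62, SE 0.24, adjusted p = 0.00021), the Ink4 inhibitor p15. The lowest were Cks1b (-0.31, SE 0.048, adjusted p = 0.00028) and E2f4 (-0.27, SE 0.048, adjusted p = 0.00086).

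Of 19 other p53 targets tested at 18 h, 14 fell and 2 rose (20.3% and 22.3% of all genes), with a median of -0.34. The lowest were Pmaip1 (-1.28, SE 0.055, adjusted p = 1.2e-09), which promotes cell death, and Plk2 (-0.87, SE 0.054, adjusted p = 4.4e-08). The rises were those of Plk3 (1.58, SE 0.053, adjusted p = 1.0e-10) and Sesn1 (0.38, SE 0.063, adjusted p = 0.00026). At 78 h 2 rose (19.2% of all genes), Plk3 (2.36, SE 0.088, adjusted p = 4.4e-09) and Ei24 (0.37, SE 0.054, adjusted p = 0.00020), and Pmaip1 fell by 1.42 (SE 0.18, adjusted p = 6.2e-05). Ccng1 and Gtse1 are also in the lists of other G1 control and other mitosis genes.

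Marker genes of cell types moved with RA at the same times, when 22.3% of all genes rose and 20.3% fell (18 h) and 19.2% rose and 14.2% fell (78 h). The summed level of 6 genes of the formative or primed epiblast was 3376 to 3692 CPM untreated and 658 to 747 CPM with RA at 18 h, and 6 of 6 fell. At 78 h it was 1212 to 1399 CPM and 187 to 321 CPM, and 5 of 6 fell. For 8 neural progenitor genes it was 445 to 483 CPM and 496 to 521 CPM at 18 h (4 rose, 1 fell) and 1063 to 1231 CPM and 1241 to 1417 CPM at 78 h (3 rose, 1 fell). Their defining genes Sox1, Pax6 and Nes were at 169, 95.5 and 291 CPM in untreated and 95.4, 118 and 412 CPM in RA-treated organoids of 78 h, as group means.

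For 10 neuron genes the summed level was 257 to 263 CPM untreated and 198 to 204 CPM with RA at 18 h (1 rose, 2 fell), and 365 to 391 CPM and 551 to 594 CPM at 78 h (7 rose, 1 fell). Their defining genes did not move together at 78 h. Tubb3, Dcx and Elavl3 were at 67.8, 4.90 and 20.6 CPM untreated and 139, 47.4 and 39.8 CPM with RA, as group means. Stmn2 went the other way, at 163 CPM untreated and 43.4 CPM with RA. At 42 h the summed level was 338 CPM untreated and 143 CPM with RA, as group means. The 8 naive pluripotency genes summed to 474 to 555 CPM and 528 to 609 CPM at 18 h (3 rose, 2 fell), and 211 to 250 CPM and 273 to 440 CPM at 78 h (4 rose). The 8 trophoblast or surface ectoderm genes summed to 62.2 to 71.1 CPM untreated and 135 to 149 CPM with RA at 18 h (4 rose of 6 tested), and 62.2 to 68.3 CPM and 605 to 627 CPM at 78 h (7 rose of 7 tested), while their defining genes Elf5, Krt5 and Trp63 were at 0.860, 0.267 and 0.962 CPM with RA, as group means. The 9 mesoderm and endoderm genes summed to at most 24.3 CPM in any library, the highest being 1 of untreated 54 h. Among 7 tested there were 3 rises and 2 falls at 18 h and 2 rises and 1 fall at 78 h. The part of these changes in the values of the cell cycle genes was not tested.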

How the data were processed

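Per the study's methods and the labels, poly(A) RNA was made into directional libraries and read as 75 bp single ends. The authors trimmed reads with Trim Galore 0.5.0, removed abundant sequences with Bowtie 2 2.3.4.1, aligned to GRCm38 with STAR and counted reads per gene with featureCounts (Subread 1.6.2). The deposited values are raw counts for 54532 genes in 45 libraries, used as deposited. The strand setting of the counting is not given in the sources used here. Symbols and exons came from GENCODE vM21 on GRCm38.

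Every comparison used only the libraries of its groups, fitted with edgeR 4.0.16 (R 4.3.3, filterByExpr with a minimum count of 10 and total of 15, TMM, glmQLFit and glmQLFTest, Benjamini-Hochberg over all genes tested). The standard error is the log2 fold change divided by the square root of F. CPM used TMM factors over all 45 libraries. Alternatives were DESeq2 1.42.0, RLE size factors, library totals, no filter, the replicate number as a block, 1 fit of all libraries, an adjusted p under 0.05 and each library left out in turn. The shares of all genes called were counted in the main fits only. The scripts were tested on simulated data. Members and lists were chosen with earlier results of these data known. Values per library and full statistics were given for D cyclins and CDK inhibitors at 18 h and 78 h, and for the 3 called genes per role with the largest change at these times. For day 2 and difference comparisons, and for other lists, the 2 largest rises and falls were named.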

Additional observations from a re-analysis of the deposited data

Results flagged for a closer look

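For 24 of the 50 genes, the effects of RA at the 2 times 18 h and 78 h were unequal by a test of their difference (edgeR quasi-likelihood test, adjusted p under 0.01, 12 libraries). Values are the log2 effect at 78 h minus that at 18 h. Over all genes, 13.1% had a higher and 14.8% a lower effect at 78 h.

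Of the S phase genes, the difference was 0.4317 for Mcm7, 0.4696 for Pcna, 0.491 for Rrm1, 0.5845 for Rrm2 and 0.4379 for Cdt1. In mitosis it was 0.3617 for Ccna2 and 0.2986 for Aurka, and it was -0.4454 for Ccnb2 and -0.4148 for Cdc25c. In G1 control it was 0.5435 for E2f1, 1.4688 for E2f2, 0.3011 for E2f3, 0.8097 for Ccne1, 0.4741 for Cdk2, 0.3663 for Cdk4, 1.4001 for Cdk6 and 0.4151 for Cdc25a. Among D-type cyclins it was 1.1499 for Ccnd1, -0.9427 for Ccnd2 and 0.6183 for Ccnd3. Among the remaining G1 genes it was 0.8623 for Cdkn1a, -0.4233 for Cdkn1b, 2.025 for Cdkn2a and -0.4873 for Rb1. For Ccnd1, Cdkn1a, E2f1, E2f2, Ccne1, Cdk6 and Rrm1 the effect was called lower with RA at 18 h and higher with RA at 78 h.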

How the results depend on the processing

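Values count called genes of the 50. At 8 h the count was 2, and 7 with DESeq2, 4 without the filter, 1 with the replicate number as a block, 9 in 1 fit of all libraries, 8 at an adjusted p under 0.05, and 0 to 12 with each library left out. At 30 h it was 3, and 8 with DESeq2, 18 in 1 fit, 11 at 0.05, and 2 to 24 with a library left out. At 42 h it was 13, and 7 with the block, 24 at 0.05, and 6 to 14 with a library left out. At 54 h it was 11, and 18 with the block and 19 at 0.05. For untreated 18 h against day 2 it was 19, and 12 in 1 fit, 29 at 0.05, and 10 to 21 with a library left out. Under settings other than leaving out a library, 77 counts stayed within 1.5 times of the reported one and 14 did not, and with a library left out 67 did and 11 did not. No named fold change that was called reversed. Several that were not called changed sign at 8 h or 30 h without the library that stood apart, and of these Cdkn1a at 30 h became a call (0.1304 to -0.2341 without RA-treated replicate 2). Each named fold change that was called was checked once under each setting, so gained calls were not counted here. In settings other than leaving out a library, 794 of these checks kept the call and 40 lost it. With a library left out 864 checks kept it and 66 lost it. Over all genes, same-numbered libraries correlated between -0.176 and 0.22 in their deviations, so the block was kept as an alternative only. Such a correlation cannot exclude that same-numbered libraries share deviations in some genes. For Cenpf at 66 h replicate 1 was highest in both arms, at 606.8, 354.2 and 367.0 CPM untreated and 625.7, 358.6 and 332.5 CPM with RA. Replicate 1 of Cenpf was also highest in both arms at 54 h and 78 h, and that of Cenpe at 54, 66 and 78 h. At 42 h the highest Cenpf library was replicate 1 untreated and replicate 3 with RA.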
